A study of Mus musculus with 2 samples.

Results

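Activin and bone morphogenetic protein (BMP) signalling was followed through 7 genes of sorted lung cells: Inhba and Bmp2 encode ligands, and Acvr1, Acvr1b, Acvr2a, Bmpr1a and Bmpr2 encode receptors. They are 7 of the 22597 genes of the count matrix, matched by symbol, and were chosen by measured values of these same cells. Their differences between the genotypes are therefore a description. The study asked how lung macrophages differ when they lack TGF-beta receptor 2. Donor bone marrow, CD45.1- and CD45.2+, was LyzM-Cre Tgfbr2 fl/fl (Tgfbr2-KO) or Tgfbr2 fl/fl without Cre (control). It was transferred into irradiated IM-DTR hosts that carried both CD45.1 and CD45.2. All hosts of both genotypes had received 50 ng of diphtheria toxin 10 days before they were killed. LyzM-Cre is active in monocytes, macrophages and neutrophils, and not in these sorted cells alone. The ages of the mice are not given in the sources used here. Lung cells that were CD45.1-, CD45.2+, Ly6G-, SiglecF-, CD11b+ and CD64+ with low side scatter were sorted. Cells of 5 mice were pooled per genotype, each pool was stained with its own hashtag antibody, and both pools were run in 1 droplet library. With 1 pool per genotype there is no replicate, so no test was made, and every interval below is an exact 95% interval that covers counting error only.

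Activins are dimers of inhibin beta subunits, and Inhba encodes the subunit of activin A. Activin A binds the type II receptor Acvr2a or its relative Acvr2b, which then activates the type I receptor Acvr1b and, through it, Smad2 and Smad3, the same transcription factors that TGF-beta uses. BMP2 binds the type I receptor Bmpr1a and the type II receptors Bmpr2 and Acvr2a, and acts through Smad1 and Smad5. Acvr1 is a type I receptor that BMP ligands use. Macrophages are a known source of activin A in inflamed tissue.

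After filtering, 2674 Tgfbr2-KO cells with 30729204 unique molecular identifiers (UMIs) and 1896 control cells with 16298452 UMIs remained. The median cell held 10277.5 UMIs in the Tgfbr2-KO pool and 7785 UMIs in the control pool. Levels are given as UMIs per 1000000 gene UMIs of the cells named (UPM). All 4887 called cell barcodes had counts in both the RNA and the hashtag library. The 3 C1q genes, which mark lung interstitial macrophages, were above the gate described below in 79.2% of Tgfbr2-KO cells and 88.6% of control cells. Markers of other cell types were low. In the Tgfbr2-KO pool the summed markers stood at 112 UPM for epithelial cells, 57.2 UPM for neutrophils, 6.31 UPM for fibroblasts, 29.0 UPM for endothelial cells, 104 UPM for alveolar macrophages and 4.20 UPM for T, NK and B cells. In the control pool they stood, for the same cell types, at 40.9, 42.5, 18.7, 20.6, 116 and 3.31 UPM. Every listed marker was detected in the Tgfbr2-KO pool, and 3 were at 0 in the control pool, 1 each for epithelial cells, neutrophils and T, NK and B cells. Their part in the results below was not tested. Tgfbr2 itself stood at 195 UPM in the Tgfbr2-KO pool and 215 UPM in the control pool. The 3′ tags read the end of the transcript, so this level does not check the deletion.

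Over all kept cells Inhba was far higher in the Tgfbr2-KO pool, Bmp2 was lower there, and the receptor genes lay close together in both pools. A gene was called when its UPM differed by at least 1.5-fold between the pools, and it was counted when both pools together held at least 100 UMIs of it. Of the 7 genes, 6 were counted, and 1 was called higher (Inhba) and 1 lower (Bmp2) in the Tgfbr2-KO pool. Among all 10237 counted genes, 19.4% were called either way, 11.9% higher and 7.53% lower. Since the 7 genes were chosen with this contrast known, nothing is read from their share. Their median log2 ratio was -0.17, against 0.09 over all counted genes.

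Gene positions are those of RefSeq on GRCm38.p6. Inhba (ENSMUSG00000041324, chr13:16004256-16031609) stood at 134 UPM in the Tgfbr2-KO pool (130.0 to 138; 4120 UMIs) and 3.68 UPM in the control pool (2.81 to 4.74; 60 UMIs), 36.4-fold higher (28.2 to 47.8). Bmp2 (ENSMUSG00000027358, chr2:133552159-133562896) stood at 55.3 UPM in the Tgfbr2-KO pool (52.7 to 57.9; 1698 UMIs) and 90.3 UPM in the control pool (85.7 to 94.99; 1471 UMIs), 1.63-fold lower (1.52 to 1.75). The Bmp2 difference was below the threshold with every cell thinned to 3000 UMIs (log2 ratio -0.29) and as a mean over cells (-0.41). Bmp2-positive cells made up 15.9% of Tgfbr2-KO cells and 16.0% of control cells, and 9.11% of Tgfbr2-KO cells and 9.80% of control cells after thinning. Of the type I receptor genes, Acvr1 (ENSMUSG00000026836, chr2:58446438-58566828) had 16.5 UPM in the Tgfbr2-KO pool and 23.9 UPM in the control pool, 1.45-fold lower (1.27 to 1.66). Acvr1b (ENSMUSG00000000532, chr15:101174072-101213684), the partner of Acvr2a for activin, had 6.41 UPM in the Tgfbr2-KO pool and 5.15 UPM in the control pool, and the interval of the ratio included 1 (0.959 to 1.63). Bmpr1a (ENSMUSG00000021796, chr14:34411061-34503336) was nearly undetected, with 28 UMIs in 18 Tgfbr2-KO cells and 12 UMIs in 10 control cells, and was below the count minimum. Of the type II receptor genes, Acvr2a (ENSMUSG00000052155, chr2:48814109-48903264) had 23.9 UPM in the Tgfbr2-KO pool and 24.5 UPM in the control pool, with the ratio between 0.862 and 1.10. Bmpr2 (ENSMUSG00000067336, chr1:59764279-59878081) had 41.0 UPM in the Tgfbr2-KO pool and 50.4 UPM in the control pool, 1.23-fold lower (1.12 to 1.34). None of the 5 receptor genes was called, and Acvr1 came nearest to the threshold.

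**Figure D1:**
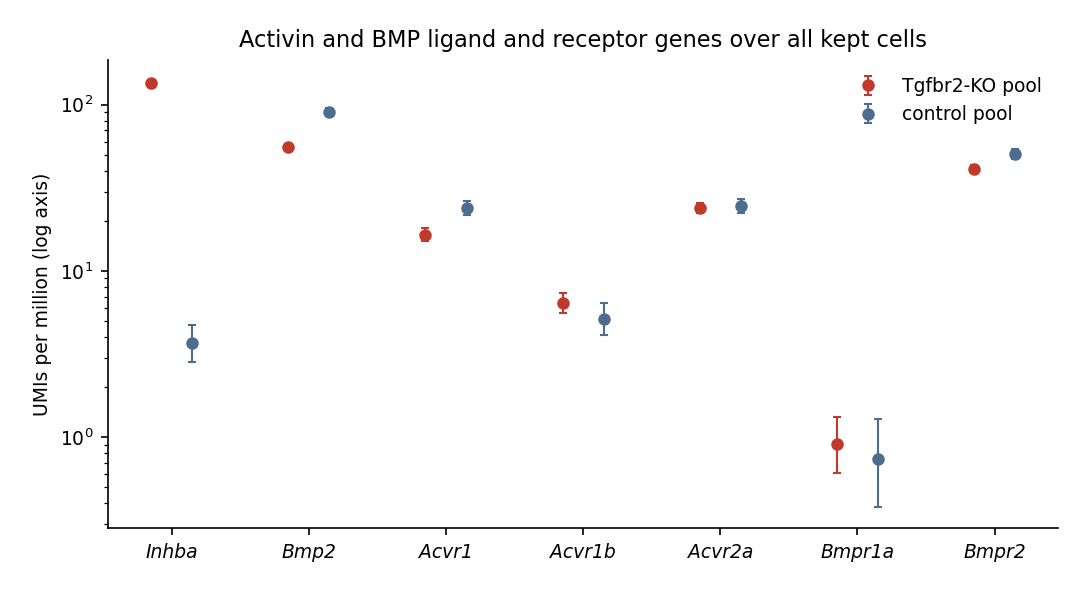
UPM of each of the 7 genes over all kept cells, on a log axis, with the Tgfbr2-KO pool left of the control pool and bars for the 95% Poisson interval of the count. Inhba stands apart at 134 UPM in the Tgfbr2-KO pool and 3.68 UPM in the control pool, while the Acvr2a points lie side by side, at 23.9 UPM in the Tgfbr2-KO pool and 24.5 UPM in the control pool.

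Promoters of Inhba and of the type II receptor genes Acvr2a and Bmpr2 are printed as a description. Any link between these sequences and the differences between the pools was not tested. RefSeq's table of promoters (GRCm38.p6, 250 bases before to 50 after each start) held 6 of the 7 genes. It had no entry for Bmp2, so Inhba is the only ligand gene among the 6. Each was searched on both strands for AP-1 (TGANTCA), CRE (TGACGTCA), the NF-kB motif, the interferon response element, GAS (TTCNNNGAA), a GC-rich BMP Smad element (GGCGCC), the TATA box (TATAAA) and the GC box (GGGCGG). Capitals mark every match. No matches overlapped each other in the 3 promoters printed.
Inhba: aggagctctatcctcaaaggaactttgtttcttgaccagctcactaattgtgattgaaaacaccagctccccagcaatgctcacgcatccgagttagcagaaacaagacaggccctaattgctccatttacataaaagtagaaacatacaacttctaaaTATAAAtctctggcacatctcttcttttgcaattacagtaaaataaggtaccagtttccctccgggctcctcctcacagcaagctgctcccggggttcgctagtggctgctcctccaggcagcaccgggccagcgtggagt
Acvr2a: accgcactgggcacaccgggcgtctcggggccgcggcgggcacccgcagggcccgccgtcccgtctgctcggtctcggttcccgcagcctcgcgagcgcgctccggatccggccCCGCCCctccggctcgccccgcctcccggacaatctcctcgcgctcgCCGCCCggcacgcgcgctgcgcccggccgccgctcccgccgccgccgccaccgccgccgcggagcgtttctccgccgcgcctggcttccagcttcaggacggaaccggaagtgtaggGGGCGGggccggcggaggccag
Bmpr2: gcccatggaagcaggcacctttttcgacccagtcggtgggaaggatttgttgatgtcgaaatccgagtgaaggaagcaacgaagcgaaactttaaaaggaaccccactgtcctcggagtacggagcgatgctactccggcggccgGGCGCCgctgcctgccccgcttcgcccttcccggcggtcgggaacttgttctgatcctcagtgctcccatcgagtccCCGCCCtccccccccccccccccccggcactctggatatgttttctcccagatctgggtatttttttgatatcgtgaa
The Inhba window (chr13:16011601-16011900, plus strand) lies inside the RefSeq span of the gene, and which start these cells use was not tested. It had 47.7% G and C and 7 CpG dinucleotides, and held 1 match, a TATA box at position -91 from the start. The Acvr2a window (chr2:48813859-48814158, plus strand) had 80.3% G and C, 54 CpG and 3 GC boxes. The Bmpr2 window (chr1:59764029-59764328, plus strand) had 59.3% G and C, 23 CpG, 1 BMP Smad element and 1 GC box. Acvr1, Acvr1b and Bmpr1a, not printed, had 79.3% to 83.7% G and C. Over all 32851 promoters the median was 52.7% G and C and 7 CpG. A GC box was present in 5 of the 6 members, all of them receptor genes, and in 35.7% of all promoters. The TATA box was present in Inhba alone of the 6 and in 13.6% of all promoters. The BMP Smad element was present in Acvr1b, Bmpr1a and Bmpr2 and in 11.9% of all promoters. AP-1, CRE, NF-kB, the interferon response element and GAS had no match in any of the 6, against 7.81%, 1.79%, 1.47%, 3.44% and 8.3% of all promoters. A match is a run of letters and not a measured binding site.

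To see which cells carried the ligand RNA, cells were sorted into 8 states by the summed UMIs of marker lists per 10000 UMIs of the cell. In order of priority these were Mki67/Top2a-high (proliferation genes), Ly6a/Gbp2-high (interferon-induced genes) and Ly6c2/Plac8-high (classical monocyte genes with low C1q). Next came Fn1-high (Fn1, Gpnmb, Pdpn, Ctsk, Atp6v0d2), Cd209a-high, and among the rest Mrc1-high and Mrc1-low cells with C1q, and C1q-low cells. Ly6c2/Plac8-high cells were thus all below the cut of the interferon-induced genes. The states are ranges of a score with cuts set after the data were seen. Between 11 and 340 of the 4570 cells lay within 20% of a given cut. The Ly6a/Gbp2-high state held 889 cells (33.2%) of the Tgfbr2-KO pool and 17 cells (0.897%) of the control pool. The Fn1-high state held 92 Tgfbr2-KO cells and 201 control cells, the Mrc1-high state 512 Tgfbr2-KO cells and 453 control cells, and the Mrc1-low state 768 Tgfbr2-KO cells and 990 control cells. The remaining states held 94 to 112 Tgfbr2-KO cells and 21 to 117 control cells each. States with under 50 cells in a pool are given as values, without a ratio.

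Most Inhba UMIs of the Tgfbr2-KO pool were in its Ly6a/Gbp2-high and Fn1-high states. The Ly6a/Gbp2-high state held 55.5% of them, in 33.2% of the cells and 42.0% of all gene UMIs of the pool. The Fn1-high state held 32.8% of them, in 3.44% of the cells and 5.32% of all gene UMIs. In Ly6a/Gbp2-high cells Inhba stood at 177 UPM in the Tgfbr2-KO pool (2285 UMIs, 188 of 889 cells positive) and 11.7 UPM in the control pool (2 UMIs in 1 of 17 cells). In Fn1-high cells it stood at 827 UPM in the Tgfbr2-KO pool (784 to 873; 1352 UMIs, 45 of 92 cells) and 2.99 UPM in the control pool (1.29 to 5.90; 8 UMIs, 7 of 201 cells), 276-fold higher (140 to 642). Of these 92 Tgfbr2-KO cells, 6 held 50% of the UMIs and the 10 highest held 73.5%. The same gate thus held many Inhba transcripts in one pool and hardly any in the other. The gated cells were not alike otherwise. Fn1 stood at 776 UPM in Fn1-high Tgfbr2-KO cells and 3130 UPM in Fn1-high control cells, and Gpnmb, a lysosomal glycoprotein gene, at 1150 UPM in those Tgfbr2-KO cells and 107 UPM in those control cells. C1qa stood at 1099 UPM in Fn1-high Tgfbr2-KO cells and 2721 UPM in Fn1-high control cells. The part of this makeup in the Inhba ratio was not tested.

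Outside these states Inhba was lower, except in C1q-low Tgfbr2-KO cells. In C1q-low cells it stood at 336 UPM in the Tgfbr2-KO pool (283 UMIs) and 11.5 UPM in the control pool (7 UMIs), but only 9 of 112 Tgfbr2-KO cells were positive and 2 cells held at least 50% of the UMIs. In Mrc1-low cells it stood at 17.6 UPM in the Tgfbr2-KO pool (125 UMIs) and 2.73 UPM in the control pool (21 UMIs), 6.44-fold higher (4.03 to 10.8), and 63 of the 125 UMIs were in 1 cell. With the gate cuts halved the Mrc1-low ratio fell below the threshold, at 0.54 on the log2 scale. In Mrc1-high cells it stood at 9.01 UPM in the Tgfbr2-KO pool (42 UMIs) and 4.96 UPM in the control pool (19 UMIs), 1.82-fold higher (1.03 to 3.31). Those counts are below the minimum for a call. Mki67/Top2a-high cells had 12.3 UPM in the Tgfbr2-KO pool (22 UMIs) and 5.23 UPM in the control pool (3 UMIs). Cd209a-high and Ly6c2/Plac8-high cells held 7 and 4 UMIs in the Tgfbr2-KO pool and none in the control pool. A count of 0, taken as 3 counts, allows up to 5.20 UPM in Cd209a-high and 16.0 UPM in Ly6c2/Plac8-high control cells (exact 95% limits 6.398 and 19.7 UPM). From high to low, the order among Tgfbr2-KO cells was Fn1-high, C1q-low, Ly6a/Gbp2-high, then Mrc1-low, Mki67/Top2a-high, Mrc1-high, Cd209a-high and Ly6c2/Plac8-high, and the intervals of neighbours from Mrc1-low downward overlapped. In the control pool no state exceeded 11.7 UPM, and the intervals of all neighbours in the order overlapped.

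Counted against the background, 1 of 4 counted members was called higher and 2 (Bmp2 and Acvr1) lower in Fn1-high cells, where 22.4% of 5136 genes were called. In Mrc1-high cells 1 of 4 (Bmpr2) was called lower, where 10.4% of genes were called, and in Mrc1-low cells 1 of 5 (Inhba) was called higher, where 7.4% were. With the gate cuts halved, the ratios of Acvr1 in Fn1-high, Bmpr2 in Mrc1-high and Inhba in Mrc1-low cells fell below the threshold. In C1q-low cells the 1 counted member, Inhba, was called, against 21.8% of genes. In Cd209a-high cells the 1 counted member, Bmp2, was not called, against 35.1% of genes.

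**Figure D2:**
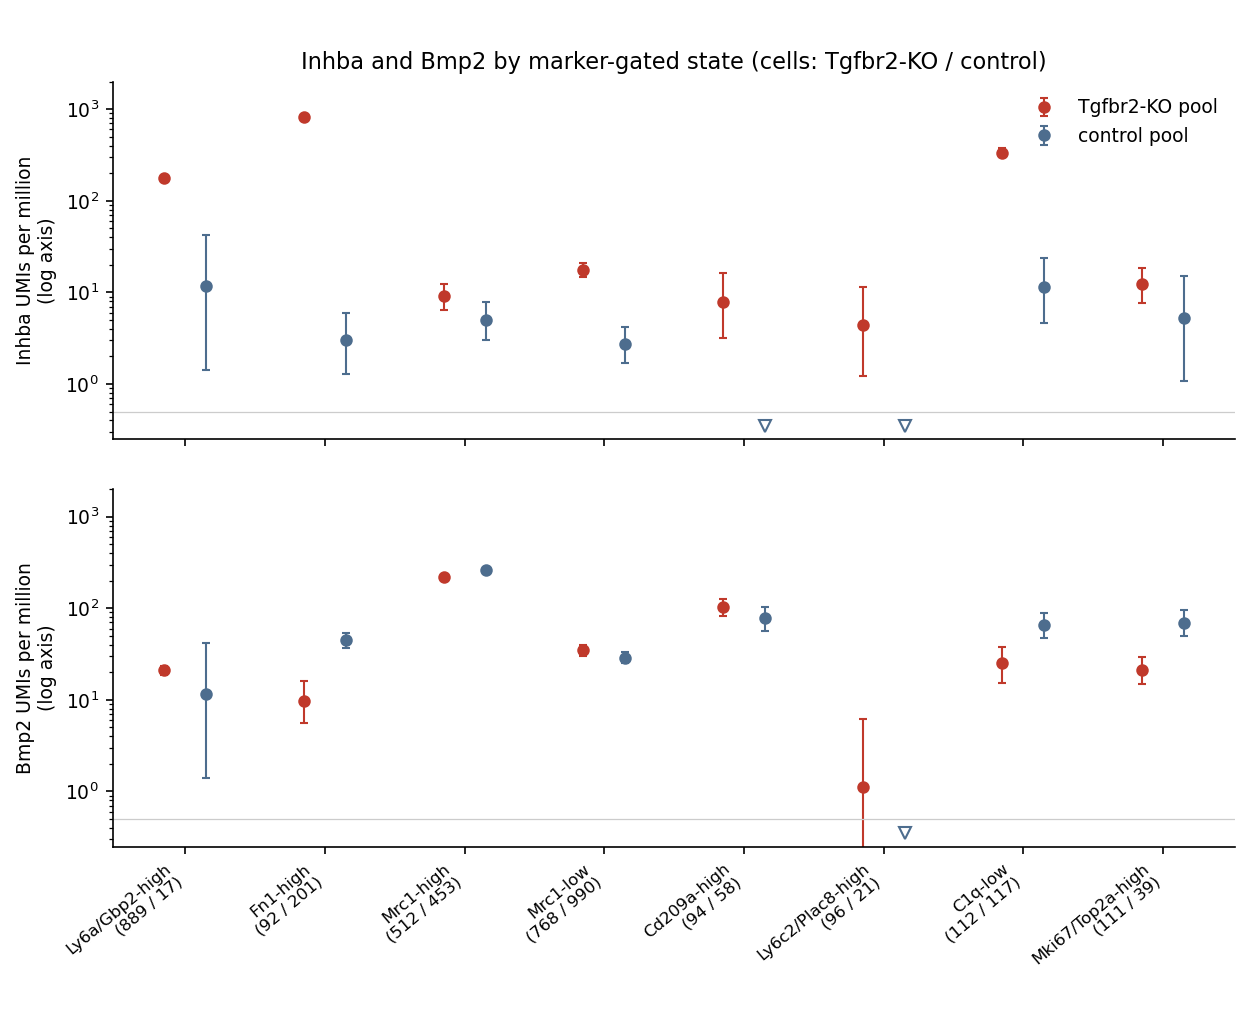
UPM of Inhba (top) and Bmp2 (bottom) in the 8 marker-gated states, on log axes, with the Tgfbr2-KO pool left of the control pool and the cells of each pool under the state's name. Bars are 95% Poisson intervals, open triangles are states without a UMI, and 1 lower bar runs off the axis; Inhba peaks at 827 UPM in Fn1-high Tgfbr2-KO cells and Bmp2 in Mrc1-high cells of both pools, at 218 UPM in the Tgfbr2-KO pool and 262 UPM in the control pool.

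Few cells carried most Inhba. In the Tgfbr2-KO pool 291 cells (10.9%) had at least 1 UMI, 155 had at least 3, 90 had at least 10 and 27 had at least 50, and the highest cell held 181. Among control cells 41 (2.16%) had at least 1 UMI, 3 had at least 3, none had 10, and the highest held 6. The positive cells averaged 14.2 Inhba UMIs in the Tgfbr2-KO pool and 1.46 in the control pool, so the pools differed both in how many cells were positive and in how much each held. In the Tgfbr2-KO pool 23 cells held 50% of the Inhba UMIs. Since depth differed, each cell was also thinned to 3000 UMIs, which left out 83 Tgfbr2-KO cells and 80 control cells with fewer. At this depth 6.25% of Tgfbr2-KO cells were positive (162 of 2591; exact interval 5.35 to 7.25) and 0.716% of control cells (13 of 1816; 0.382 to 1.22). In the Fn1-high state the thinned share was 31.1% of Tgfbr2-KO cells (28 of 90), against 0 of 195 control cells, where a count of 0, taken as 3 counts, allows a share of up to 1.54% (exact 95% limit 1.87%). In the Ly6a/Gbp2-high state it was 12.3% of Tgfbr2-KO cells (107 of 872). Ly6c2/Plac8-high Tgfbr2-KO cells, of 9371 median UMIs against 13622 in the Ly6a/Gbp2-high state, had 2.20% (2 of 91; 0.267 to 7.71). Thinned shares were 1.59% of Tgfbr2-KO cells and 1.13% of control cells in the Mrc1-high state, and 1.05% of Tgfbr2-KO cells and 0.509% of control cells in the Mrc1-low state. The intervals of the pools overlapped in the Mrc1-high state, at 0.690 to 3.12 for Tgfbr2-KO cells and 0.369 to 2.63 for control cells. They also overlapped in the Mrc1-low state, at 0.455 to 2.06 and 0.166 to 1.18, so no difference is read from these shares of positive cells. All 4 lie within the interval of the Ly6c2/Plac8-high share, but it rests on 2 positive cells and is too wide to tell them apart.

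Free RNA was taken from 310792 barcodes with 2 to 100 UMIs, in which Inhba made up 63.7 UPM. The gene rarest in a pool relative to this profile bounds the free RNA at 4.48% of the UMIs of the Tgfbr2-KO pool (Nkain2) and 0.896% of those of the control pool (Gm15056). Free RNA could thus give at most 2.85 of the 134 UPM of Inhba in the Tgfbr2-KO pool and 0.570 of the 3.68 UPM in the control pool.

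**Figure D3:**
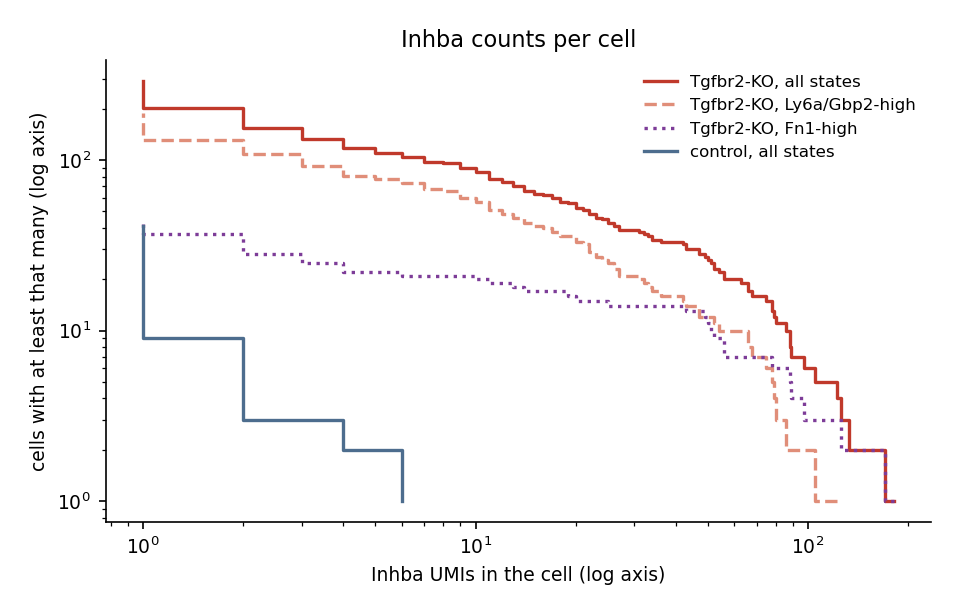
Number of cells (vertical, log axis) with at least a given number of Inhba UMIs (horizontal, log axis), for all Tgfbr2-KO cells, the Ly6a/Gbp2-high and Fn1-high Tgfbr2-KO cells, and all control cells. The control line ends at 6 UMIs, while 90 Tgfbr2-KO cells hold at least 10 and the highest holds 181.

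Within the Ly6a/Gbp2-high state of the Tgfbr2-KO pool, Inhba went with low C1q and with Nos2, which encodes inducible nitric oxide synthase. The 270 cells below the C1q cut had 416 UPM (395 to 438), and the 619 cells above it had 84.9 UPM (79.1 to 91.0). The 113 Nos2-positive cells had 645 UPM with 58 positive cells, and the 776 Nos2-negative cells had 91.3 UPM with 130 positive cells. Median depth was 17267 UMIs in the Nos2-positive cells and 13184.5 UMIs in the Nos2-negative cells, and its part in the difference of positive cells was not tested. Part of the Inhba of the Ly6a/Gbp2-high Tgfbr2-KO state lay in cells that also passed the Fn1 gate. With that gate applied first, the state held 863 Tgfbr2-KO cells with 1817 Inhba UMIs, at 147 UPM. In the Fn1-high state 40 of the 45 Inhba-positive Tgfbr2-KO cells had no Nos2 UMI, and Inhba stood at 678 UPM in Nos2-negative Tgfbr2-KO cells and 3.01 UPM in Nos2-negative control cells. In the control pool 9 cells had a Nos2 UMI, and none of them had an Inhba UMI. Over both Mrc1 states, cells without Nos2 had 8.86 UPM of Inhba in the Tgfbr2-KO pool (104 UMIs) and 3.49 UPM in the control pool (40 UMIs), 2.54-fold higher (1.75 to 3.75). Positive cells were 35 of 1279 in the Tgfbr2-KO pool and 27 of 1437 in the control pool. Single cells held 18, 15 and 13 of these Tgfbr2-KO UMIs, so the ratio rests in part on few cells.

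Inhba-positive cells of the Ly6a/Gbp2-high Tgfbr2-KO state carried more RNA of Slc7a2, Nos2, Saa3 and the cytokine genes Il6 and Il1a, and less of Ccl8, Apoe and Cx3cr1. The 188 positive cells were set against the 701 negative cells of the same state, and of 1604 genes at 100 UPM or more in either set the 12 highest and 8 lowest ratios are named, leaving out mitochondrial, ribosomal, sex-linked and gate genes. Positive cells were deeper, with a median of 16221.5 UMIs against 13034 UMIs, and all values are in UPM. The highest ratio was that of Slc7a2, which carries arginine into the cell, with 107 UPM in Inhba-positive cells and 5.19 UPM in Inhba-negative cells, 20.6-fold higher (15.3 to 28.3). Nos2, which turns arginine into nitric oxide, had 241 UPM in Inhba-positive cells and 33.7 UPM in Inhba-negative cells, 7.14-fold higher. The acute-phase gene Saa3 was 6.93-fold higher in Inhba-positive cells and F10, coagulation factor X, 6.77-fold higher. Dcstamp, which acts in the fusion of macrophages, was 5.74-fold higher. The cytokine genes Il6 and Il1a were 5.43-fold and 5.10-fold higher, the cystine transporter Slc7a11 4.90-fold, Rgcc 4.81-fold, the elastase Mmp12 4.58-fold, the predicted gene Gm15056 4.39-fold and the lectin receptor Clec4e 3.99-fold. Most of these genes had a UMI in a minority of the Inhba-positive cells. Without thinning, Slc7a2 had a UMI in 16.5% of Inhba-positive cells and 3.57% of Inhba-negative cells. In the same order, Nos2 had 30.9% and 7.85%, Saa3 18.6% and 5.14%, and Il6 27.1% and 8.70%. The widest shares were those of Clec4e, with 78.7% and 37.1%, and Slc7a11, with 66.5% and 33.8%.

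The lowest ratio was that of the chemokine Ccl8, with 568 UPM in Inhba-positive cells and 2846 UPM in Inhba-negative cells, 5.01-fold lower (4.78 to 5.26). Apoe, a lipid carrier, had 1303 UPM in Inhba-positive cells and 4311 UPM in Inhba-negative cells, 3.31-fold lower. Ms4a7, Cd72 and the fractalkine receptor Cx3cr1 were 3.09-fold, 2.92-fold and 2.58-fold lower, the selenium carrier Selenop 2.36-fold, Tmem176a 2.21-fold and Ccnd1, cyclin D1, 2.17-fold. The summed C1q genes stood at 5280 UPM in Inhba-positive cells and 10599 UPM in Inhba-negative cells. The summed interferon-induced gate genes, which define the state, stood at 6729 UPM in Inhba-positive cells and 6154 UPM in Inhba-negative cells. The summed genes of the Fn1-high gate stood at 383 UPM in Inhba-positive cells and 86.8 UPM in Inhba-negative cells.

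The same genes were then read in cells that had not been used to choose them, where a ratio was formed if both sets held at least 3 UMIs. In the remaining Tgfbr2-KO states without Fn1-high (58 positive cells), 9 of 11 such higher genes were above 1 and 8 past 1.5-fold, against 8.99% of all ranked genes. There 7 of 8 lower genes were below 1 and 5 past 1.5-fold, against 4% of ranked genes. In Fn1-high Tgfbr2-KO cells (45 positive cells), 8 of 11 higher genes were above 1 and 5 past 1.5-fold, against 4.81% of ranked genes, and 7 of 8 lower genes were below 1 and 3 past 1.5-fold, against 6.81%. There Nos2 stood at 67.3 UPM in both sets, and Slc7a2 was 1.602-fold lower (1.07 to 2.42) in Inhba-positive cells. Saa3 had no UMI in Fn1-high Tgfbr2-KO cells. Among control cells (41 positive cells), 6 of 9 higher genes were above 1 and 4 past 1.5-fold, against 5.2% of ranked genes. Of the lower genes 6 of 8 were below 1 and 2 past 1.5-fold, against 4.2%, and none of the positive control cells had a Nos2 UMI. Ccl8, the lowest gene of the choice, did not keep its direction in any of these sets, with log2 ratios of 0.02 in Fn1-high Tgfbr2-KO cells, 0.45 in the remaining Tgfbr2-KO states and 0.73 among control cells. Mmp12 was higher with Inhba in Fn1-high Tgfbr2-KO cells, with a log2 ratio of 0.58, but stood at -0.24 in the remaining Tgfbr2-KO states and -0.10 among control cells. Rgcc likewise stood at 1.02 in Fn1-high Tgfbr2-KO cells, -0.28 in the remaining Tgfbr2-KO states and -0.35 among control cells. Dcstamp was above 0 in both of those Tgfbr2-KO sets but stood at -1.76 among control cells. Il6 stood at -0.15 in Fn1-high Tgfbr2-KO cells and above 0 in the other sets. The remaining Tgfbr2-KO states and the control cells each pool several states, and the part of their mix in these ratios was not tested.

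**Figure D4:**
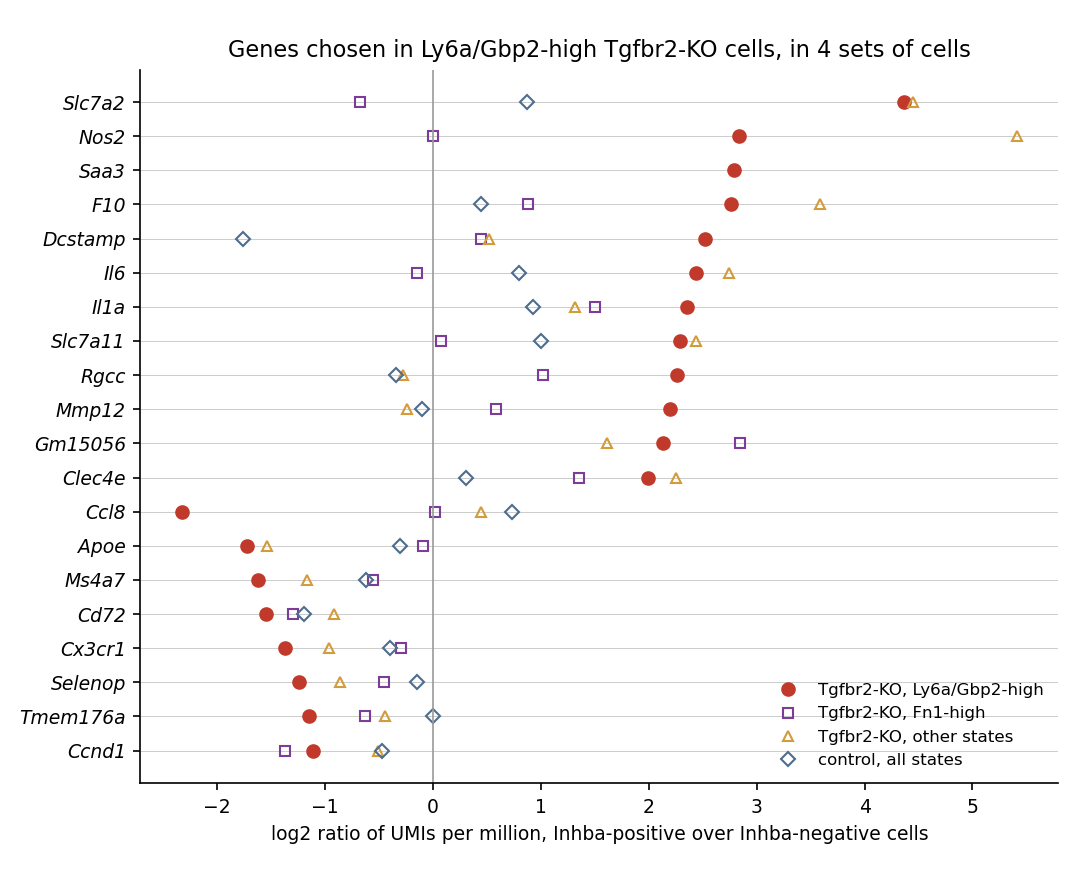
log2 ratio of UPM in Inhba-positive over Inhba-negative cells for the 12 highest and 8 lowest genes of Ly6a/Gbp2-high Tgfbr2-KO cells (filled circles, used for the choice) and in 3 other sets of cells (open symbols), with no symbol where a set held under 3 UMIs. Open triangles mostly lie on the side of the filled circles, while open squares of the Fn1-high state lie near 0 for Nos2, Slc7a11 and Ccl8.

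Of the 9 higher genes with a promoter in RefSeq's table, Il6, Il1a and Gm15056 held an AP-1 match, against 7.81% of all promoters, and Il6 an NF-kB match, against 1.47%. The TATA box, which the Inhba window holds, was present in Il1a and Clec4e, against 13.6% of all promoters. Saa3 held an interferon response element, Slc7a11 a GAS match and Rgcc a GC box, against 3.44%, 8.3% and 35.7% of all promoters. The other motifs had no match in the 9.

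Bmp2 was highest in another state. In Mrc1-high cells it stood at 218 UPM in the Tgfbr2-KO pool (204 to 231; 181 of 512 cells positive) and 262 UPM in the control pool (246 to 279; 160 of 453 cells), 1.204-fold lower (1.10 to 1.32). With the gate cuts halved this log2 ratio was 0.10, on the other side of 0. This state held 59.7% of the Bmp2 UMIs of the Tgfbr2-KO pool and 68.2% of those of the control pool. The intervals of the thinned shares overlapped, at 21.9% of Tgfbr2-KO cells (18.4 to 25.8) and 23.8% of control cells (19.9 to 28.1). In Mrc1-low cells Bmp2 stood at 34.6 UPM in the Tgfbr2-KO pool and 28.9 UPM in the control pool, with a ratio between 0.996 and 1.44. Its direction also turned with the gate, at log2 ratios of -0.25 with the cuts halved and -0.22 with the cuts doubled. In Fn1-high cells it stood at 9.79 UPM in the Tgfbr2-KO pool (16 UMIs) and 44.5 UPM in the control pool (119 UMIs), 4.55-fold lower (2.69 to 8.21), so that both ligand genes were past the threshold in this state and in opposite directions. Of the 201 control cells, 6 held at least 50% of their Bmp2 UMIs and the 10 highest held 73.1%. The intervals of the thinned shares overlapped, at 5.56% of Tgfbr2-KO cells (1.83 to 12.5) and 8.21% of control cells (4.76 to 12.98). In C1q-low cells Bmp2 stood at 24.96 UPM in the Tgfbr2-KO pool (21 UMIs) and 65.9 UPM in the control pool (40 UMIs). Ly6a/Gbp2-high cells had 21.0 UPM in the Tgfbr2-KO pool (271 UMIs) and 11.7 UPM in the control pool (2 UMIs). Mki67/Top2a-high cells had 21.2 UPM in the Tgfbr2-KO pool and 69.7 UPM in the control pool (40 UMIs in 7 of 39 cells). Ly6c2/Plac8-high cells held 1 UMI in the Tgfbr2-KO pool and 0 in the control pool.

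The difference in Bmp2 over all cells was smaller when the Ly6a/Gbp2-high state was left out, and the part of the makeup of the pools in it was not tested. Without that state Bmp2 stood at 80.1 UPM in the Tgfbr2-KO pool and 91.1 UPM in the control pool, 1.14-fold lower (1.06 to 1.22), which is below the threshold. In Cd209a-high cells Bmp2 stood at 102 UPM in the Tgfbr2-KO pool (35 of 94 cells positive) and 78.1 UPM in the control pool (7 of 58 cells), where 1 control cell held 35 of 45 UMIs. This difference depended on the gate: with the cuts halved the log2 ratio was -0.55, the opposite direction. With the cuts doubled the state held 20 Tgfbr2-KO cells (4 Bmp2 UMIs) and 25 control cells (1 Bmp2 UMI), too few for a ratio. The Mrc1 list of these cells had a median of 60.6 UMIs per 10000 in the Tgfbr2-KO pool and 4.15 in the control pool, and its part in the share of positive cells was not tested.

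The same split was made for Bmp2 in Mrc1-high control cells, a choice made after the values were seen. The 160 positive cells had more RNA of Ccl24, an eosinophil chemokine, with 173 UPM in Bmp2-positive cells and 50.2 UPM in Bmp2-negative cells, 3.44-fold higher. Cd38, Ednrb, Hbegf, Cd180, Fcna, the heme oxygenase Hmox1, Cbr2, Spic, Fhit, the gelatinase Mmp9 and Pla2g2d were 1.93-fold to 2.31-fold higher. The lowest ratio was that of Mmp12, with 26.4 UPM in Bmp2-positive cells and 258 UPM in Bmp2-negative cells, 9.81-fold lower (7.12 to 13.9), and Lsp1, S100a4, Cytip, Bcl2a1a, S100a6, Taf4b and Plxdc2 were 2.07-fold to 2.30-fold lower. In Mrc1-high Tgfbr2-KO cells, which were not used for the choice, all 12 higher genes were above 1, with 6 past 1.5-fold, and all 8 lower genes were below 1, with 5 past 1.5-fold. Among all 1575 ranked genes, 1.78% were past 1.5-fold higher and 0.952% past 1.5-fold lower there.

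The ligands met in few cells. In the Tgfbr2-KO pool 26 cells held a UMI of both, where the product of the separate shares gives 46.3 cells over the pool and 33.5 cells when summed within states. Among control cells 10 held both, where the product gives 6.57 over the pool and 7.68 within states. States differed: in Mrc1-high Tgfbr2-KO cells Inhba was 2.56-fold higher (1.33 to 5.06) in Bmp2-positive cells than in Bmp2-negative cells, and in Ly6a/Gbp2-high Tgfbr2-KO cells Bmp2 was 1.80-fold lower (1.29 to 2.55) in Inhba-positive cells. The Mrc1-high Tgfbr2-KO cells held 42 Inhba UMIs in 15 cells, and 18 of them were in 1 cell. The part of that cell in the ratio was not tested. Among all control cells Bmp2 was 1.33-fold higher (1.003 to 1.74) in Inhba-positive cells. Over the 13 combinations of state and pool with at least 50 cells, log2(UPM + 1) of Inhba and Bmp2 had a Pearson correlation of -0.32, a description over points that share a library. The patterns most like Inhba were those of the proteoglycan gene Sdc1 (r = 0.91), Ksr2 (0.90), Rars (0.89), Pdcd1lg2 (0.88), which encodes the checkpoint ligand PD-L2, and Gpc1 (0.87). Those most like Bmp2 were Kdelc2 (0.94), Rnf145 (0.94), the scavenger receptor Stab1 (0.94), the potassium channel Kcnk13 (0.93) and Nacc2 (0.93).

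The receptor genes varied less across states than the ligand genes did. Acvr2a lay within its counting error between the pools in all 5 states with 50 cells in each. It had 19.0 UPM in the Tgfbr2-KO pool and 19.1 UPM in the control pool in Fn1-high cells, and in Mrc1-high cells 23.2 UPM in the Tgfbr2-KO pool and 25.1 UPM in the control pool. In Mrc1-low cells it had 25.5 UPM in the Tgfbr2-KO pool and 25.9 UPM in the control pool. Bmpr2 had 42.9 UPM in the Tgfbr2-KO pool (200 UMIs) and 69.2 UPM in the control pool (265 UMIs) in Mrc1-high cells, 1.61-fold lower (1.34 to 1.95). With the gate cuts halved this log2 ratio was -0.52, below the threshold. In Mrc1-low cells Bmpr2 had 37.2 UPM in the Tgfbr2-KO pool and 39.8 UPM in the control pool, a ratio whose interval included 1. Acvr1 had 17.1 UPM in the Tgfbr2-KO pool (28 UMIs) and 29.9 UPM in the control pool (80 UMIs) in Fn1-high cells, 1.75-fold lower (1.12 to 2.79). With the gate cuts halved this log2 ratio was -0.40, also below the threshold. In Mrc1-low cells Acvr1 had 16.3 UPM in the Tgfbr2-KO pool and 22.3 UPM in the control pool, 1.36-fold lower (1.07 to 1.74). Acvr1b had 1 to 32 UMIs in each of these 5 states and pools, with ratios whose intervals all included 1. Bmpr1a had at most 8 UMIs in any of them. In the Ly6a/Gbp2-high state, with 17 control cells, the Tgfbr2-KO pool had 22.6 UPM of Acvr2a, 39.6 UPM of Bmpr2, 13.4 UPM of Acvr1 and 7.90 UPM of Acvr1b, and the control pool held 0 to 10 UMIs of each. That state held 51.8% of the Acvr1b UMIs of the Tgfbr2-KO pool, beside 42.0% of all its gene UMIs.

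**Figure D5:**
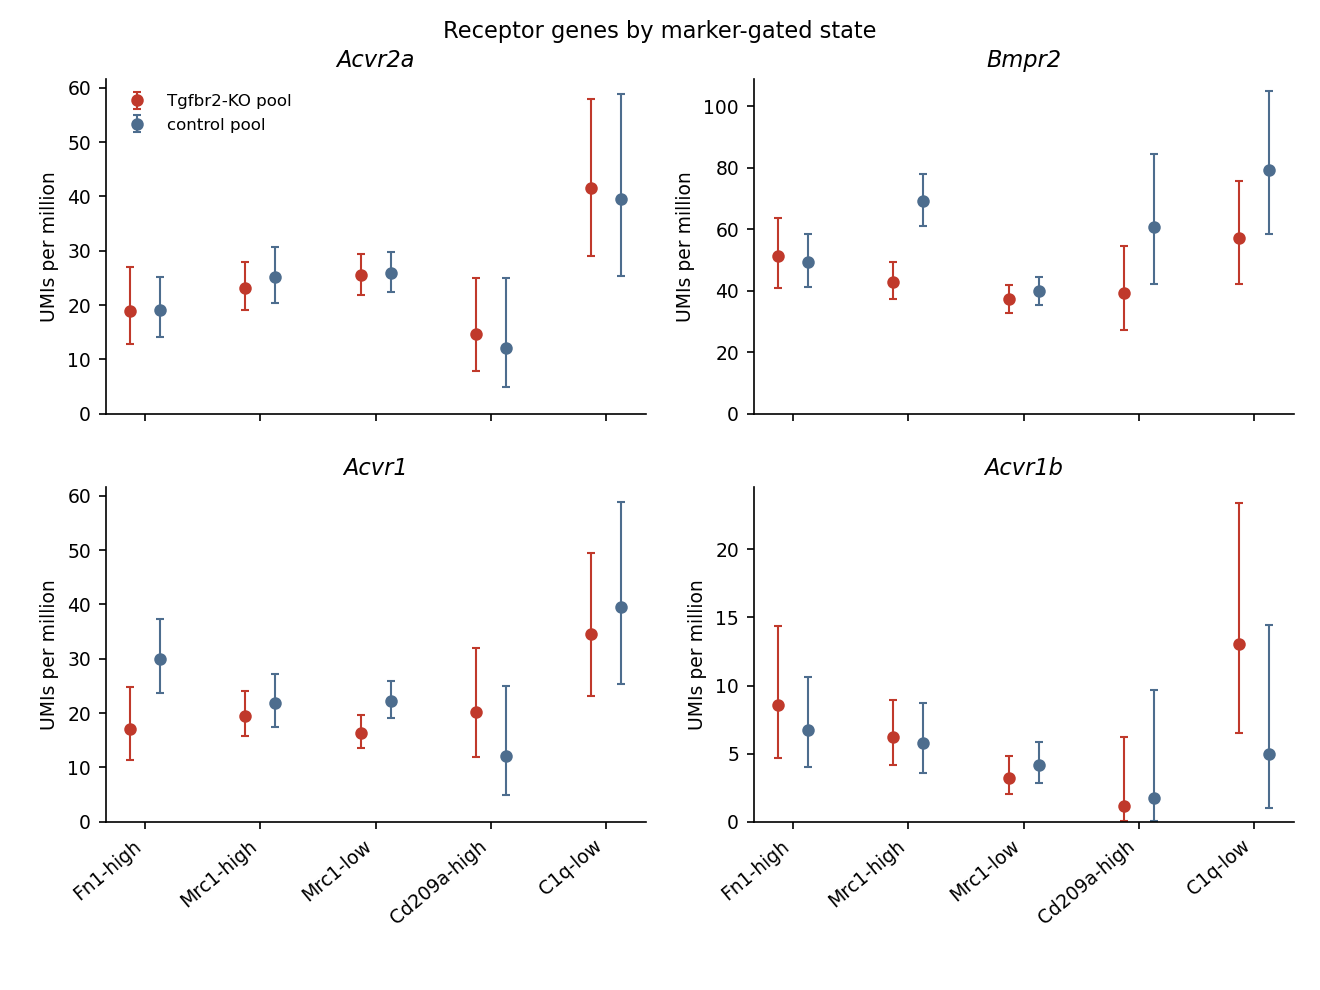
UPM of Acvr2a, Bmpr2, Acvr1 and Acvr1b in the 5 states with at least 50 cells in each pool, on linear axes from 0 with a scale of their own, the Tgfbr2-KO pool left of the control pool and bars for 95% Poisson intervals. The bars are clear of each other for Bmpr2 in Mrc1-high cells, at 42.9 UPM in the Tgfbr2-KO pool and 69.2 UPM in the control pool.

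Among Ly6a/Gbp2-high Tgfbr2-KO cells the activin receptor genes did not separate Inhba-positive from Inhba-negative cells beyond counting error, and of the genes read for BMP signalling some were lower and some higher in Inhba-positive cells. These genes were picked and are no fixed list. Acvr2a had 25.4 UPM in Inhba-positive cells and 21.7 UPM in Inhba-negative cells, with a ratio between 0.897 and 1.52, and Acvr1b had 10.1 UPM in Inhba-positive cells and 7.16 UPM in Inhba-negative cells, with a ratio between 0.902 and 2.17. Acvr1 had 7.95 UPM in Inhba-positive cells and 15.3 UPM in Inhba-negative cells, 1.92-fold lower (1.26 to 3.03). Acvrl1, a type I receptor for BMP9 and BMP10, was 1.73-fold lower (1.45 to 2.08) in Inhba-positive cells, and Id3, a BMP target, 1.96-fold lower (1.70 to 2.27). Bambi, a decoy receptor that damps TGF-beta family signals, had 40.4 UPM in Inhba-positive cells and 19.4 UPM in Inhba-negative cells, 2.08-fold higher (1.65 to 2.62). Id2, another BMP target, was 1.35-fold higher (1.26 to 1.45) in Inhba-positive cells, against the direction of Id3, and the ratio of Bmpr2 lay between 0.715 and 1.09. In Fn1-high Tgfbr2-KO cells Acvrl1 was 1.85-fold lower (1.18 to 2.93) and Id3 2.004-fold lower (1.33 to 3.06) in Inhba-positive cells, while Bambi had 8 UMIs in Inhba-positive cells and 3 UMIs in Inhba-negative cells. In the remaining Tgfbr2-KO states Id3 was 2.03-fold lower (1.63 to 2.57) in Inhba-positive cells, so that it was lower in all 3 sets of Tgfbr2-KO cells. Id2 was higher in all 3, by 1.40-fold (1.19 to 1.66) in Fn1-high cells and 1.21-fold (1.09 to 1.34) in the remaining states. Acvr2a had 9 UMIs in the positive cells of those remaining states, 2.37-fold lower in UPM (1.24 to 5.22) than in the negative cells. Among control cells the intervals of Id2, Id3, Bmpr2 and Acvr2a included 1.

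The other genes of the pathway were counted over all cells by list, beside 19.4% of all counted genes called either way, 11.9% higher and 7.53% lower. Of 26 other activin, BMP and GDF ligand genes, only Gdf3 and Gdf15 reached the minimum, and neither was called; 10 had no UMI. Gdf15, a stress-induced ligand, stood at 272 UPM in the Tgfbr2-KO pool and 224 UPM in the control pool, and without the Ly6a/Gbp2-high state at 371 UPM in the Tgfbr2-KO pool and 224 UPM in the control pool, 1.66-fold higher. Of 7 counted receptor and co-receptor genes, none was called higher and 2 lower. Tgfbr1, the type I receptor for TGF-beta, stood at 141 UPM in the Tgfbr2-KO pool and 290 UPM in the control pool, 2.06-fold lower (1.98 to 2.15), and 1.72-fold lower without the Ly6a/Gbp2-high state. Acvr2b, the relative of Acvr2a, had 46 UMIs in the Tgfbr2-KO pool and 56 in the control pool, 2.30-fold lower (1.53 to 3.47). Of the 3 counted inhibitors, Bambi, Twsg1 and Fkbp1a, none was called. Follistatin genes did not reach the minimum.

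Of 13 counted Smad genes and regulators, 2 were called higher and 1 lower. Skil, a corepressor of Smads that TGF-beta induces, stood at 276 UPM in the Tgfbr2-KO pool and 578 UPM in the control pool, 2.09-fold lower (2.03 to 2.16). The inhibitory Smad6 had 116 UMIs in the Tgfbr2-KO pool and 31 in the control pool, 1.98-fold higher (1.33 to 3.05), and 1.18-fold without the Ly6a/Gbp2-high state. Zfyve9, a receptor anchor for Smads, was 1.62-fold higher (1.29 to 2.03). Of the 3 counted BMP target genes, Id1 was 1.95-fold higher on 114 UMIs in the Tgfbr2-KO pool and 31 UMIs in the control pool, Id2 stood at 372 UPM in the Tgfbr2-KO pool and 566 UPM in the control pool, 1.52-fold lower (1.48 to 1.57), and Id3 was not called. Of the 2 counted convertases, Furin, which cleaves the ligand precursors, stood at 183 UPM in the Tgfbr2-KO pool and 298 UPM in the control pool, 1.63-fold lower (1.57 to 1.69). Without the Ly6a/Gbp2-high state Id1, Id2 and Furin were below the threshold, with 1.49-fold higher, 1.34-fold lower and 1.22-fold lower values. The medians of the 6 lists lay between -0.25 and 0.08 on the log2 scale.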

How the data were processed

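The authors deposited 1 matrix of UMI counts per gene and barcode for the RNA library and a hashtag table. Chromium 3′ v3 counts came from Cell Ranger 8.0 on GRCm38, and Seurat 5.1.0 is listed too, per the submitters' processing notes; the use of Seurat is not given there. In the deposited hashtag table, assignment is a posterior probability as a fraction of 1, and hashtag counts are log10 values. Cells that this table assigns to hashtag B0303 (Tgfbr2-KO) or B0301 (control) were used, with no further cut on the probability. Those with at least 1000 UMIs, 500 genes and at most 10% mitochondrial UMIs were kept, leaving 4570 of 4671. Cells that the table calls multiplets were left out, and doublets within a hashtag (102 expected) stayed. No per-sample column went unused.

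Counts were summed per pool, state or cell set with Python 3.11.15, numpy 2.4.6, scipy 1.17.1 and pandas 2.3.3 and divided by gene UMIs. Intervals are exact Poisson, conditional binomial or Clopper-Pearson, and treat UMIs as independent. Their code was run on simulated Poisson counts, which share that assumption. Such a run cannot show whether the intervals hold for RNA that is concentrated in few cells, as Inhba is here. With edgeR 4.0.16 (R 4.3.3) TMM factors were computed as an alternative. The members and lists were chosen with earlier results of these data known. Named genes were all members, list genes past 1.5-fold, the 12 highest and 8 lowest ratios in ligand-positive cells, and the 5 most alike patterns. The split by Bmp2, its patterns and the promoter genes were chosen after values were seen. So were the names Gdf3, Gdf15, Bambi, Twsg1, Fkbp1a, Id3, Acvrl1, Smad2, Smad3 and Smad7. Alternatives were stricter filters, an assignment probability of at least 0.99, other thresholds, thinning, gate cuts, states left out and TMM.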

Additional observations from a re-analysis of the deposited data

Results flagged for a closer look

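Inhba was also present in cells that no comparison used. Cells that the hashtag table calls multiplets held Inhba at 26.5 UPM (19.2 to 35.7), with 43 UMIs in 6 of 96 cells. Cells without an assigned hashtag held it at 192 UPM (156 to 234), with 99 UMIs in 4 of 66 cells. Both values are above the 3.68 UPM of the control pool. Cells called blank held no Inhba UMI in 54 cells.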

How the results depend on the processing

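Of 131 recomputed values over 26 results, 110 moved by less than their counting interval or, for counts, by less than 1.5 times, 21 moved by more, and no called value changed sign. For Inhba over all cells, with a log2 ratio of 5.19, the mean over cells gave 4.81, and leaving out the Ly6a/Gbp2-high and Fn1-high states, an alternative chosen after seeing the data, gave 3.01. For Bmp2 over all cells, with a log2 ratio of -0.71, thinning each cell to 3000 UMIs gave -0.29, the mean over cells -0.41, leaving out the Ly6a/Gbp2-high state -0.19, and leaving out both states -0.20, all below the threshold. Bmp2 in Mrc1-high cells, at -0.27, came to 0.10 with the gate cuts halved. With a 2-fold threshold 1 member was called in place of 2. The share of Inhba-positive cells was 10.9% in the Tgfbr2-KO pool and 2.16% in the control pool without thinning, and 3.78% in the Tgfbr2-KO pool and 0.0551% in the control pool for at least 2 UMIs. With the Fn1 gate applied first, also chosen after seeing the data, Inhba stood at 839 UPM in Fn1-high Tgfbr2-KO cells and 2.99 UPM in Fn1-high control cells. In Ly6a/Gbp2-high Tgfbr2-KO cells Inhba then stood at 147 UPM, against 177 UPM with the main order of gates. TMM scaling moved every log2 ratio by -0.07. The cause of these shifts was not tested. No paired analysis was possible because each genotype is 1 pool. With 1 pool per genotype no replicate could be left out, and the difference between the pools has no replicate check.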
